A study of Homo sapiens with 6 samples.

Results

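Far intergenic regions were taken as those accessible regions of the table that overlap no protein-coding or lncRNA gene of the NCBI RefSeq gene table for GRCh38 and lie more than 50 kb from the nearest one. Of 3838 regions, 365 met this rule, which uses position only and no measured value. They were measured by ATAC-seq, which marks open chromatin by the places where a transposase can cut and tag DNA. The cells were 3 established human lines of multiple myeloma, a plasma cell cancer, named KMS-11, KMS-12 and RPMI8226. All are of wild-type genotype per the labels, and all received DMSO, the solvent control, or 1 µM JQ1 for 72 h, which gives 6 libraries in 2 groups of 3. The series title links JQ1 to the transcription factor FLI1 and the lncRNA SMILO, and the regions asked about here are those without a protein-coding or lncRNA gene nearby. The labels list 1 library per line and treatment, although the design text speaks of duplicates and of RNA-seq and writes KMS-111 for the first line. Whether a deposited fold rests on 1 library or on pooled duplicates is therefore not known, and no replicate within a line was analysed. Each SD below is the spread between lines. The Wilson intervals given for shares treat regions as independent and hold no spread between lines.

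JQ1 is a small molecule that occupies the acetyl-lysine pocket of the BET bromodomain proteins and so displaces them from acetylated chromatin. Much of the open chromatin outside promoters is enhancer DNA, short stretches bound by transcription factors that can act on genes over long distances, and some gene deserts are known to hold enhancers of developmental genes. Other gene-free stretches are the centromeres and the heterochromatin next to them, which are built of satellite repeats and are packed tightly. Which gene, if any, a far intergenic region acts on is not given by its position, and a gene name below marks a neighbour only.

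The deposited values are log fold changes, taken as log2 with JQ1 as numerator and DMSO as denominator, although the header gives neither the base nor the direction. The table held no value above 0 in any line, and each region was at or below -0.5 in at least 2 lines, so lower accessibility is a property of the whole table and not a finding about these regions. Read depth is unknown, and a bulk fold cannot tell fewer cells with an open region from less opening in each cell. Many folds in KMS-11 and KMS-12 recur to the last digit. Of the far intergenic regions, 265 (72.6%) had a KMS-11 or KMS-12 value held by at least 10 regions of the table, against 65.4% of the other regions. The part of such coarse values in the results was not tested beyond the values without them given further on.

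Far intergenic regions fell by about as much as the rest of the table when the 3 lines were averaged, but the lines were not alike. The median over the 365 regions of the mean log2 fold change was -0.71 (quartiles -0.90 and -0.58), and it was -0.71 in the 3473 other regions as well. By line, the authors' deposited table gave far intergenic regions a median of -0.76 in KMS-11 (quartiles -1.03 and -0.56), against -0.71 in other regions. In KMS-12 the median of the authors' deposited table was -0.89 (quartiles -1.14 and -0.58), against -0.78 elsewhere. In RPMI8226 the order was the opposite in the authors' deposited table, with -0.57 (quartiles -0.78 and -0.27) for far intergenic and -0.62 for other regions. Far intergenic minus other was therefore -0.06 for KMS-11, -0.11 for KMS-12 and 0.05 for RPMI8226. The mean difference was -0.04 ± 0.08 (SD, n = 3 lines; two-sided exact sign-flip permutation p = 0.5, with 0.25 the smallest that 3 lines allow). It was smaller than the spread between lines, and moved to -0.00126 without KMS-12 and to -0.08 without RPMI8226, so single lines set its size. No direction is read from it, and the difference between lines was not tested, since each has 1 value.

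**Figure D1:**
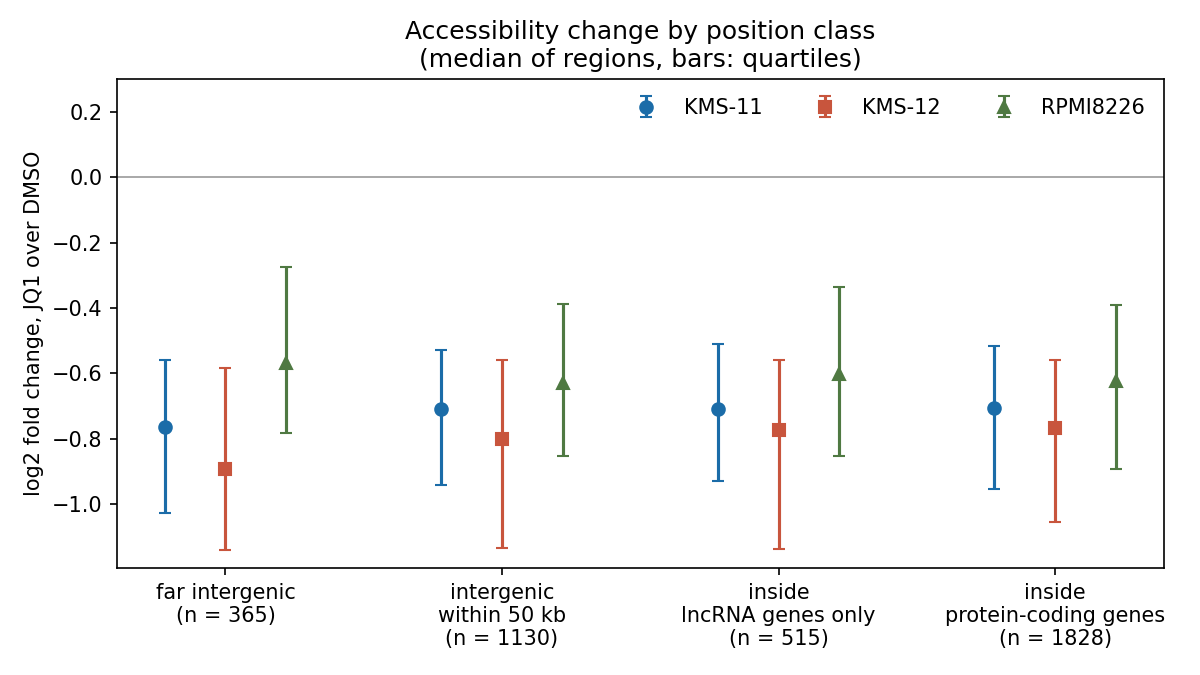
The vertical axis gives the log2 fold change of JQ1 over DMSO and the horizontal axis 4 position classes of regions, with points for the median over regions and bars for the quartiles in each line. The far intergenic class had the lowest medians of the 4 classes for KMS-11 (-0.76) and for KMS-12 (-0.89) and the one nearest to 0 in RPMI8226 (-0.57).

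Against the more similar classes, the same pattern was seen. Intergenic regions within 50 kb of a gene (1130 regions) had medians of -0.71 for KMS-11, -0.80 for KMS-12 and -0.63 for RPMI8226 in the authors' deposited table. Regions inside lncRNA genes only (515) stood at -0.71, -0.77 and -0.60 in KMS-11, KMS-12 and RPMI8226 in the authors' deposited table. Those inside protein-coding genes (1828) stood at -0.71, -0.77 and -0.62 in the same order in the authors' deposited table. The far intergenic median lay outside the range of the 3 nearer classes in each line.

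The count of lines showed where RPMI8226 stood apart. The authors' deposited table counted 94 far intergenic regions (25.8%, Wilson 95% interval 21.5 to 30.5%) as common to 3 lines, against 24.8% of all regions, so the share was near the background. Of the 271 regions common to 2 lines, 142 (52.4%) stayed above -0.5 in RPMI8226, 65 (24.0%) in KMS-12 and 64 (23.6%) in KMS-11. In the other regions common to 2 lines, 41.8% stayed above it in RPMI8226, 30.7% in KMS-11 and 27.5% in KMS-12. RPMI8226 gave the lowest value of the 3 lines in 58 far intergenic regions (15.9%), against 24.1% of the other regions, and KMS-12 in 172 (47.1%), against 44.3%. Values between -0.1 and 0, close to no change, were held by 34 far intergenic regions (9.32%) in RPMI8226, 14 (3.84%) in KMS-12 and 7 (1.92%) in KMS-11. Over all regions the shares were 6.67%, 5.26% and 3.91%, in the same order of lines.

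Large folds showed the same split. A log2 fold change of -1 or lower was held by 95 far intergenic regions (26.0%) in KMS-11, against 22.7% of all regions in that line. In KMS-12 it was held by 121 (33.2%), against 29.9% of all regions, and in RPMI8226 by 43 (11.8%), against 16.4% of all regions. For the mean over lines, 53 far intergenic regions (14.5%, Wilson 95% interval 11.3 to 18.5%) reached -1, against 12.3% of all regions. By limma, a linear model test with pooled variance, 317 of the 365 regions (86.8%) passed at 0.05 (Benjamini-Hochberg adjusted p, mean lower than 0), against 87.5% of all 3838. That test repeats the selection of the table and is not read as evidence about these regions. Without KMS-11 the limma count was 122 and without KMS-12 it was 175, where 34.1% and 52.0% of all regions passed.

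Distance to the nearest gene ranged from 50.3 to 3038.5 kb, with a median of 101 kb (quartiles 67.2 and 179 kb). The 180 regions at 50 to 100 kb had a median of -0.68 for the mean log2 fold change over lines, the 113 at 100 to 200 kb -0.70, the 57 at 200 to 500 kb -0.76 and the 15 beyond 500 kb -0.93. Regions with a mean of -1 or lower made up 12.2%, 11.5%, 22.8% and 33.3% of these bins, and the last bin holds few regions. In KMS-12 the medians were -0.75, -0.91, -0.91 and -1.32 from the nearest to the farthest bin in the authors' deposited table. The median of the 2 middle bins is a recurring KMS-12 fold, held by 213 regions of the whole table, so it did not move between them. In KMS-11 the bins differed little, at -0.76, -0.79, -0.71 and -0.79 in the authors' deposited table, where -0.79 is likewise a recurring fold, held by 178 regions. In RPMI8226 the bins stood at -0.58, -0.55, -0.64 and -0.35 in the authors' deposited table, so the farthest bin was the one nearest to 0.

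**Figure D2:**
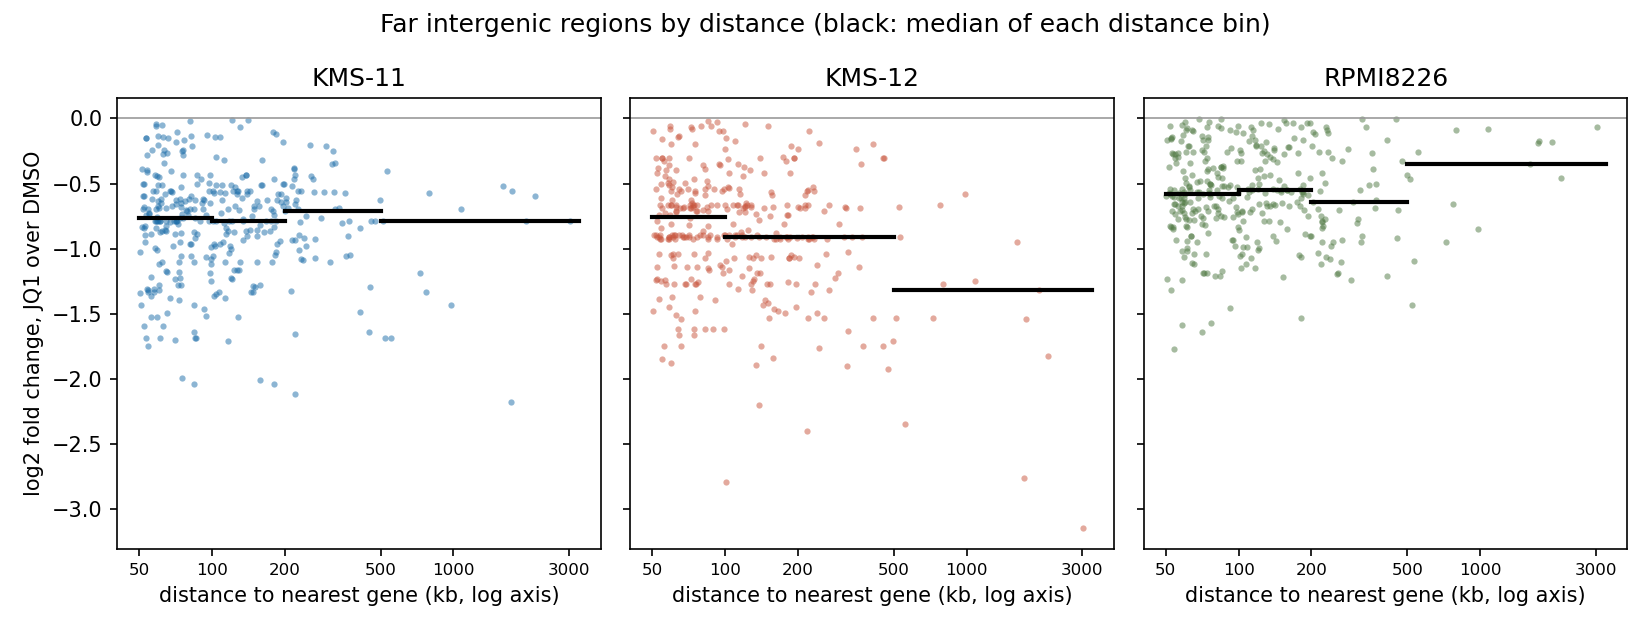
Each point is a far intergenic region, with its distance to the nearest gene in kb on a log axis, its log2 fold change of JQ1 over DMSO on the vertical axis, 1 panel per line, and black bars for the median of each distance bin. In KMS-12 the bars lie at -0.75, -0.91, -0.91 and -1.32, while the last bar in RPMI8226 lies at -0.35. Regions on chromosome Y are not drawn.

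The 15 regions more than 500 kb from a gene call for care, because 12 of them lie in the longest gene-free gap of their chromosome, which on these chromosomes is the stretch around the centromere. Repeats there make it hard to place short reads, and since no source used here names the read filters, whether their reads map to 1 place was not tested. In the 12, KMS-12 had the lowest value in 10 and RPMI8226 the value nearest to 0 in 11. Over all 365 far intergenic regions, KMS-12 was lowest in 47.1% and RPMI8226 nearest to 0 in 51.5%, so part of this order is shared. The medians of the 12 in the authors' deposited table were -0.79 for KMS-11, -1.42 for KMS-12 and -0.22 for RPMI8226. RPMI8226 reached -0.5 in 3 of the 12, while KMS-11 and KMS-12 reached it in 12 of 12. Over all regions 67.8% reached it in RPMI8226, 77.4% in KMS-11 and 79.5% in KMS-12, and the table required it in at least 2 lines.

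Chromosome 17 held the most regions in such a gap, 7 between the noncoding genes LOC124904098 and LOC124903955, which lie 4304 kb apart. The lowest of all far intergenic means was there, 1732 kb from LOC124904098 (chr17:24425367-24425774), with -2.18 for KMS-11, -2.76 for KMS-12 and -0.19 for RPMI8226 in the authors' deposited table. Its mean was -1.71 ± 1.35 (SD, n = 3 lines), and -1.18 without KMS-12. KMS-11 and KMS-12 were far below 0 and RPMI8226 was close to it. The region at chr17:25389811-25390181 had -0.52, -0.95 and -0.35 in KMS-11, KMS-12 and RPMI8226, and the one at chr17:25920041-25920385 had -0.69, -1.24 and -0.08, in the authors' deposited table. Of the 4 nearer to a gene, the one at chr17:26939016-26939558, 58.5 kb from LOC124903955, ran against the others, with -0.06 for KMS-11, -0.51 for KMS-12 and -1.02 for RPMI8226 in the authors' deposited table. KMS-12 was the lowest line in the other 6.

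The region farthest from a gene lay on chromosome 1, 3038.5 kb from LINC02798 (chr1:124501650-124502314), in a gap of 21836 kb. It held the lowest single KMS-12 value among far intergenic regions, -3.14, beside -0.79 in KMS-11 and -0.06 in RPMI8226 in the authors' deposited table, a mean of -1.33 ± 1.61 (SD, n = 3 lines). Without KMS-12 the mean was -0.43, so 1 line set this value. On chromosome 11, a region 553 kb from OR4C46, an olfactory receptor gene (chr11:54049904-54050129), had -1.68, -2.35 and -0.26 in KMS-11, KMS-12 and RPMI8226 in the authors' deposited table. On chromosome 16, a region in the gap between LINC02167 and SHCBP1 (chr16:37507492-37507959) had -0.56, -1.54 and -0.17 in the same order in the authors' deposited table. In both, as in the chromosome 1 region, RPMI8226 was nearest to 0 and KMS-12 lowest.

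Chromosome 3 held 3 such regions between EPHA3, which encodes an ephrin receptor kinase, and PROS1, which encodes the anticoagulant protein S. The one at chr3:91649457-91649859 had -0.60, -1.82 and -0.46 in KMS-11, KMS-12 and RPMI8226, and the one at chr3:91471690-91471896 had -0.79, -1.32 and -0.18, in the authors' deposited table. The latter overlaps the transcribed pseudogene LOC101930420. The region at chr3:90463084-90463840 had another order, -1.43, -0.58 and -0.85 in the authors' deposited table, and was common to 3 lines. On chromosome 5, 2 regions had EMB, which encodes the membrane glycoprotein embigin, as their nearest gene. The first (chr5:49599450-49600861) had -0.57, -1.27 and -0.09, and the second (chr5:49623903-49624282) -1.33, -0.66 and -0.66, in KMS-11, KMS-12 and RPMI8226 in the authors' deposited table. The last of the 12, on chromosome 6, lay 724 kb from KHDRBS2, an RNA-binding protein gene (chr6:60818065-60818382), and was low in all 3 lines, at -1.19, -1.53 and -0.94 in the authors' deposited table.

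**Figure D3:**
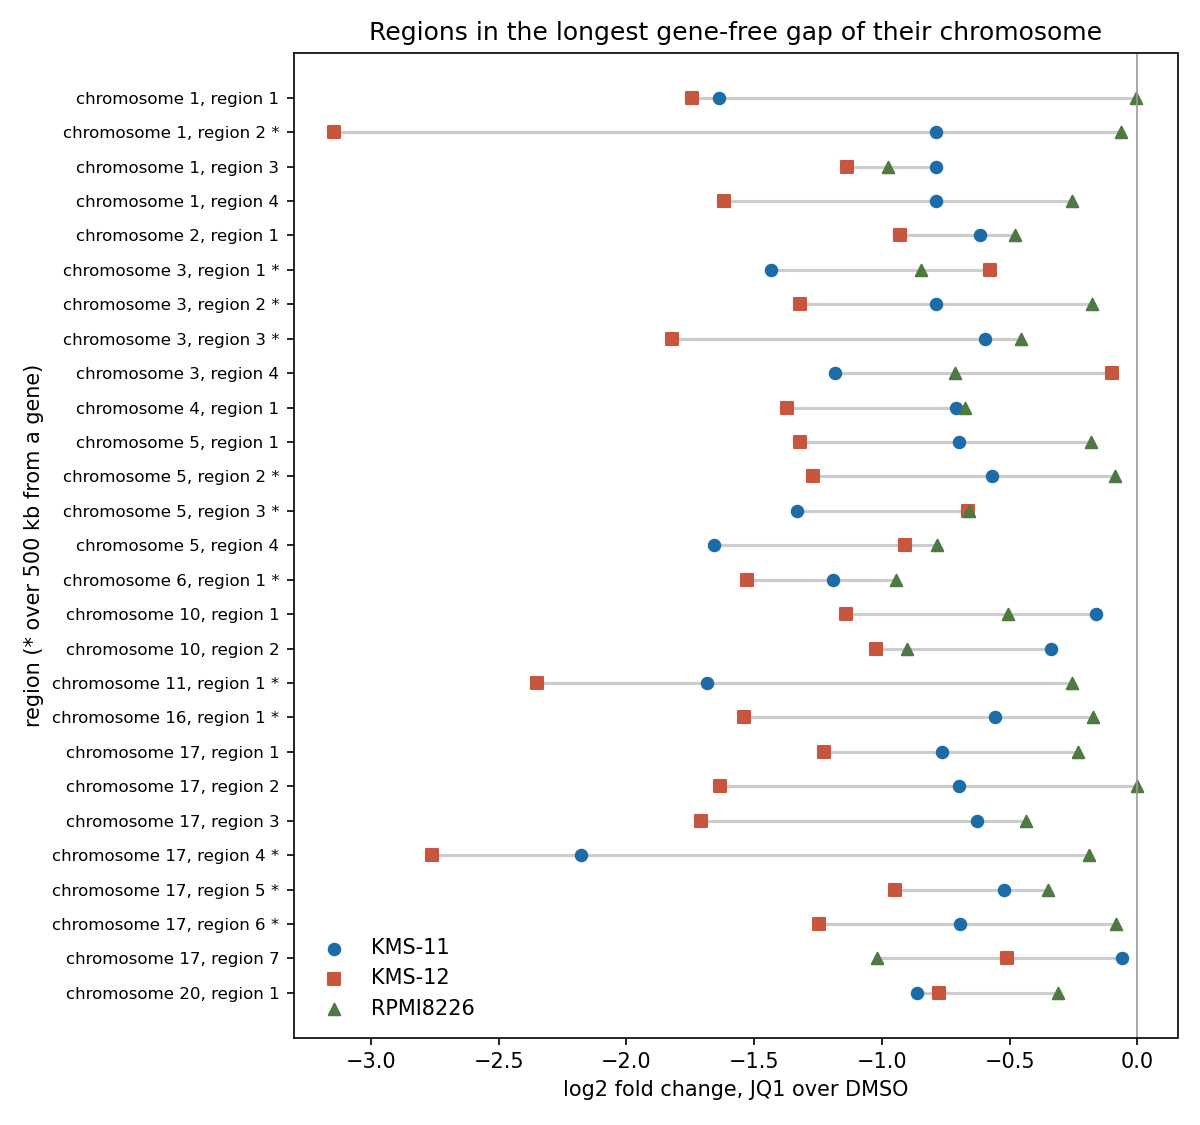
Each row is a far intergenic region in the longest gene-free gap of its chromosome, ordered along the chromosomes and named by chromosome, with the log2 fold change of JQ1 over DMSO on the horizontal axis and a symbol per line, an asterisk marking those over 500 kb from a gene. In 21 of the 27 regions the KMS-12 symbol lies farthest from 0, and in 21 the RPMI8226 symbol lies nearest to it. Over all far intergenic regions these shares were 47.1% and 51.5%.

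In all, 27 far intergenic regions lay in the longest gap of their chromosome, those nearer than 500 kb to a gene included. Their medians in the authors' deposited table were -0.76 for KMS-11, -1.27 for KMS-12 and -0.35 for RPMI8226. KMS-12 values there were tied with at least 9 other regions in 40.7%, against 59.7% in all far intergenic regions, so these low values were no more often recurring ones. The other 3 regions beyond 500 kb lay in gene deserts of chromosome arms. The one at chr1:194889353-194889712 had -0.40, -0.91 and -1.10, the one at chr6:102736916-102737065 -0.79, -1.53 and -0.46, and the one at chr6:103011642-103011927 -1.68, -0.68 and -1.43, in KMS-11, KMS-12 and RPMI8226 in the authors' deposited table. RPMI8226 was the lowest line in the first, and no shared order was seen.

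Up to 500 kb, the farthest were 497 kb from LOC124904098 (chr17:23190264-23190454, -0.92 ± 0.69) and 472 kb from MANEA-DT (chr6:95087497-95087714, -1.01 ± 0.82; SD, n = 3 lines each), followed by the chromosome 6 region at 455 kb described with its neighbour further on. KMS-12 was the lowest line in both, and without it they averaged -0.53 and -0.55.

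Setting aside the 30 regions in the longest gaps or beyond 500 kb left 335. Their medians in the authors' deposited table were -0.76 for KMS-11, -0.87 for KMS-12 and -0.57 for RPMI8226. Far intergenic minus other was then -0.06, -0.09 and 0.05 in the 3 lines, a mean of -0.03 (two-sided exact sign-flip permutation p = 0.5). The signs of the 3 differences stayed the same. Only the longest gap of each chromosome was set aside, so other regions near centromeres may remain, and no cause was tested. Among the 100 far intergenic regions without a recurring KMS-11 or KMS-12 value, the differences were -0.04, -0.08 and 0.02.

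Outside the centromeric gaps, the lowest means belonged to single elements beside a wide range of genes. A region 182 kb from EDNRA, which encodes an endothelin receptor (chr4:147299211-147299561), had -2.04 for KMS-11, -0.93 for KMS-12 and -1.54 for RPMI8226 in the authors' deposited table, a mean of -1.499 ± 0.56 (SD, n = 3 lines). KMS-11 and RPMI8226 were below -1.5, and KMS-12 lay nearer to its median over all regions, -0.79. One 101 kb from GUCY2F, a retinal guanylate cyclase gene (chrX:109270944-109271676), had -0.56, -2.79 and -1.06 in KMS-11, KMS-12 and RPMI8226 in the authors' deposited table, a mean of -1.47 ± 1.17 (SD, n = 3 lines). It fell to -0.81 without KMS-12. One 158 kb from the noncoding gene LOC107984609 (chr13:105165582-105166081) had -2.004, -1.83 and -0.55 in the same order in the authors' deposited table.

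Of the 12 lowest means, 3 regions were below -1 in every line. The first lay 54.1 kb from LOC102724289, with MBNL1, an RNA splicing regulator, as the nearest protein-coding gene 130 kb away (chr3:152596106-152596420). It had -1.31 for KMS-11, -1.25 for KMS-12 and -1.77 for RPMI8226 in the authors' deposited table, the lowest RPMI8226 value of the far intergenic regions, and a mean of -1.44 ± 0.29 (SD, n = 3 lines). The second, 74.3 kb from LOC105371656 (chr1:187622033-187622323), had -1.28, -1.62 and -1.19 in KMS-11, KMS-12 and RPMI8226 in the authors' deposited table. The last, between NNT, a mitochondrial transhydrogenase gene 65.4 kb away, and FGF10, which encodes a fibroblast growth factor (chr5:43772792-43772987), had -1.49, -1.54 and -1.04 in the same order in the authors' deposited table.

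Others of the 12 lowest rested on fewer lines. A region 219 kb from CNTN5, a neural cell adhesion gene (chr11:98801514-98801916), had -0.38 for KMS-11, -2.40 for KMS-12 and -1.11 for RPMI8226 in the authors' deposited table. Its mean of -1.30 ± 1.02 (SD, n = 3 lines) was -0.75 without KMS-12. A region 75.5 kb from LOC105372167 on chromosome 18 (chr18:64706875-64707406) had -1.99, -1.27 and -0.57 in KMS-11, KMS-12 and RPMI8226 in the authors' deposited table. Here KMS-11 was the lowest line.

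**Figure D4:**
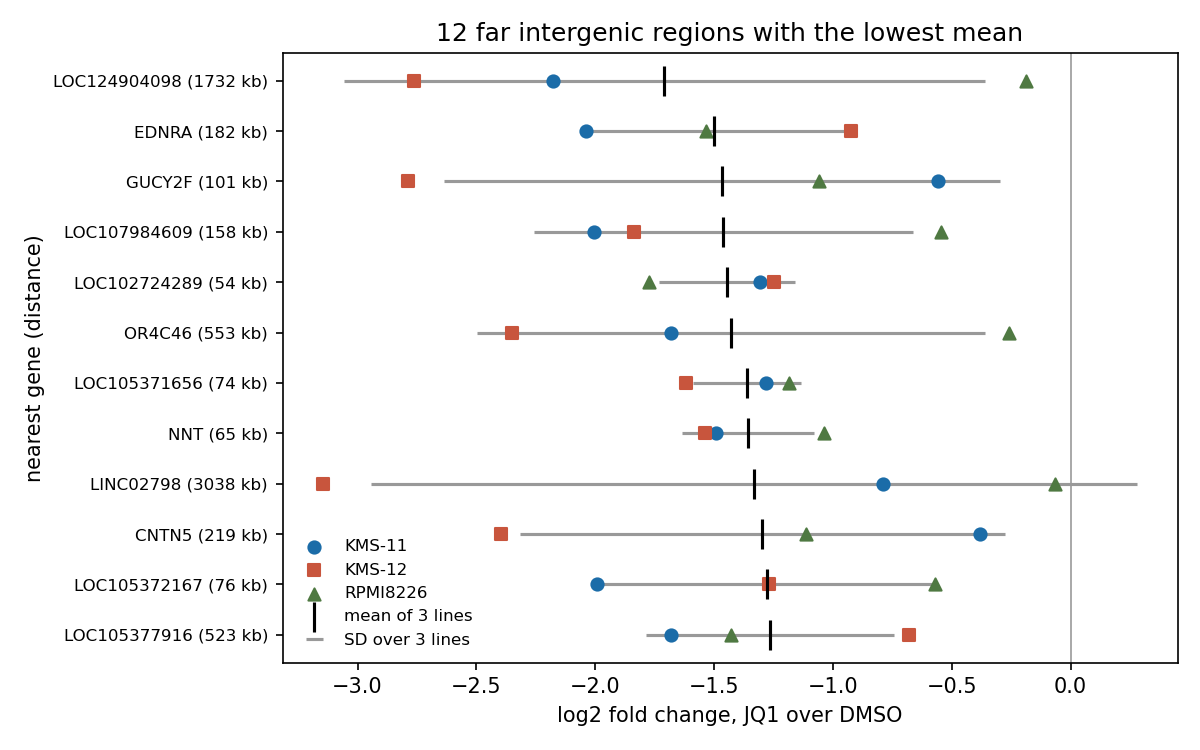
The 12 far intergenic regions with the lowest mean are named by their nearest gene and its distance, with the log2 fold change of JQ1 over DMSO on the horizontal axis, a symbol per line, a black tick for the mean and a grey bar for the SD over 3 lines. The means run from -1.71 to -1.26, and the lines lie close together beside LOC102724289, LOC105371656 and NNT and far apart beside LOC124904098, LINC02798 and GUCY2F.

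Some far intergenic regions had nearly the same fold in every line. The smallest spread among those common to 3 lines was 239 kb from LINC01821 (chr2:194104563-194105020), with -1.09 for KMS-11, -1.13 for KMS-12 and -1.08 for RPMI8226 in the authors' deposited table, a mean of -1.10 ± 0.03 (SD, n = 3 lines). It was followed by regions 80.9 kb from LOC105369711 (chr12:28631849-28632234, -0.72 ± 0.04) and 154 kb from LOC105373451 (chr2:18117308-18118068, -0.57 ± 0.06; SD, n = 3 lines each). Another 2 lay 103 kb from HMHB1 (chr5:143923941-143924136, -0.97 ± 0.08) and 230 kb from FAT4, an atypical cadherin gene (chr4:125084514-125085039, -0.99 ± 0.08; SD, n = 3 lines each). The median SD over lines was 0.37 in far intergenic and 0.37 in other regions.

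Most far intergenic regions stood alone. The 365 regions lay in 306 gene-free gaps, of which 264 held 1 region, and 24.9% had another region of the table within 100 kb, against 34.8% of the other regions. Within 10 kb the shares were 5.75% and 5.44%. Chained within 100 kb of each other, they formed 30 pairs and 2 groups of 3.

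A group of 3 spanned 157 kb beside CXCR4, which encodes a chemokine receptor that holds plasma cells in the bone marrow. The region 120 kb from CXCR4 (chr2:136238548-136239156) had -1.23 for KMS-11, -0.67 for KMS-12 and -1.01 for RPMI8226 in the authors' deposited table, a mean of -0.97 ± 0.28 (SD, n = 3 lines). The next, at 187 kb (chr2:136305641-136305853), had -0.58, -0.21 and -0.89 in KMS-11, KMS-12 and RPMI8226 in the authors' deposited table, a mean of -0.56 ± 0.34 (SD, n = 3 lines). The last, 276 kb from CXCR4 and 150 kb from LOC105373633 (chr2:136394614-136395154), had -0.67, -1.42 and -0.55 in the same order in the authors' deposited table, a mean of -0.88 ± 0.47 (SD, n = 3 lines). KMS-12 was nearest to 0 in the first 2 and lowest in the last. A far intergenic region outside this group lay closer, 54.9 kb from CXCR4 on its other side (chr2:136059103-136059430). It had -0.84 for KMS-11, -0.89 for KMS-12 and -0.37 for RPMI8226 in the authors' deposited table, a mean of -0.70 ± 0.28 (SD, n = 3 lines). No gene expression was analysed here.

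The other group of 3 lay between LOC124900952 and CDH6, a cadherin gene (chr5:30850029-30850244, chr5:30908332-30908671 and chr5:30918215-30918505). Its means were -0.51 ± 0.37, -0.63 ± 0.38 and -0.57 ± 0.33 (SD, n = 3 lines each). In the authors' deposited table RPMI8226 did not reach -0.5 in the second (-0.21) and the last (-0.25), and KMS-12 did not in the first (-0.08). Of the 30 pairs, the one with the lowest median lay 523 and 455 kb from LOC105377916 on chromosome 6, with means of -1.26 ± 0.52 (chr6:103011642-103011927) and -0.60 ± 0.26 (chr6:103079983-103080198; SD, n = 3 lines each).

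Gaps with 3 regions spread more widely, named here after their values were seen, included 1 on the short-arm end of chromosome X, between SHOX, a homeobox gene of skeletal growth, and CRLF2, a cytokine receptor gene. Its regions had -0.75, -1.76 and -0.30 (chrX:903863-904314), -0.61, -1.89 and -0.05 (chrX:1056323-1056717) and -0.56, -1.18 and -0.10 (chrX:1092469-1092899) in KMS-11, KMS-12 and RPMI8226 in the authors' deposited table. All 3 had KMS-12 lowest and RPMI8226 nearest to 0. Whether the reads of these regions map to 1 place was not tested. Between SEMA3C, which encodes a secreted guidance protein, and LOC105369146, 3 regions had means from -0.76 to -0.58, the lowest of them -0.48 without KMS-11.

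Chromosomes differed in how much of their list was far intergenic. On chromosome 13 it was 22 of 98 regions (22.4%), on X 21 of 120 (17.5%) and on chromosome 5 32 of 209 (15.3%). On chromosome 14 it was 3 of 94 (3.19%), on chromosome 22 1 of 35 (2.86%) and on chromosome 19 0 of 70. Gene density differs between chromosomes in the same sense as background, chromosome 13 being poor and 19 rich in genes. Both regions of the table on chromosome Y were far intergenic.

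**Figure D5:**
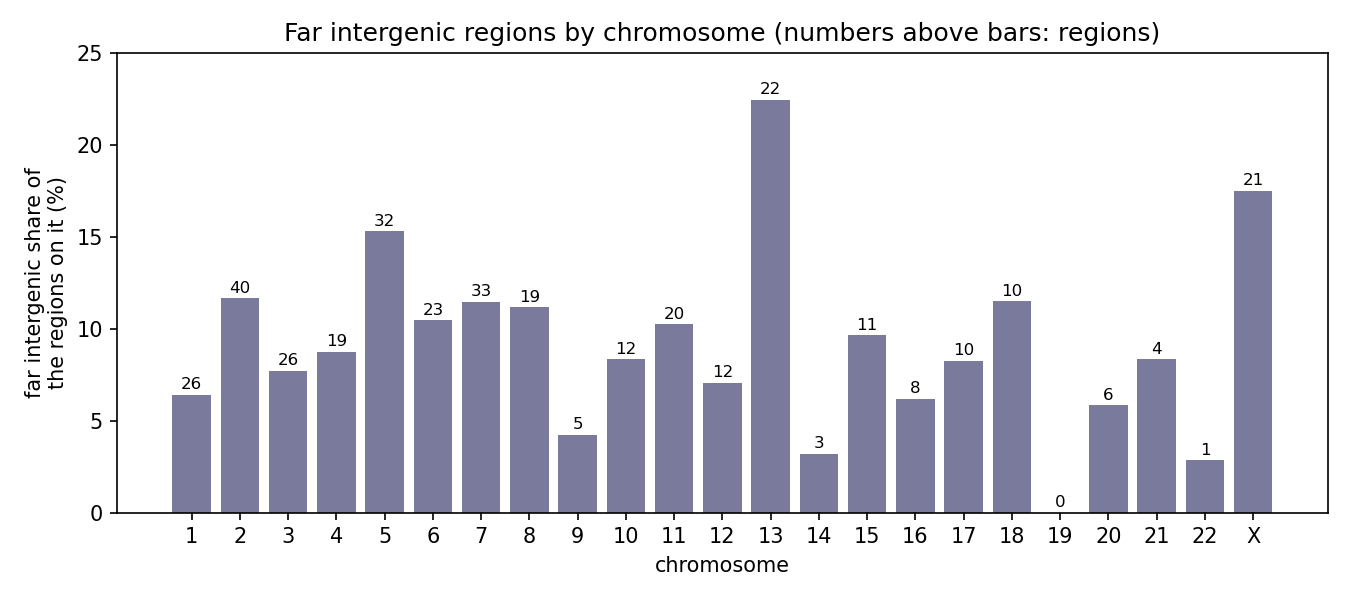
Bars give the share of the regions on each chromosome that were far intergenic, in percent, with their number above each bar and chromosome Y left out. Chromosome 13 (22.4%) and X (17.5%) stand highest, and chromosome 19 has 0.

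Nearest neighbours were mostly noncoding. The nearest gene was a lncRNA for 255 regions (69.9%) and protein-coding for 110 (30.1%), and for 184 regions it had no name beyond a LOC number. Regions with a lncRNA nearest had a median mean of -0.71 and those with a protein-coding gene nearest -0.70. The nearest protein-coding gene was a median of 226 kb away, and 85 regions (23.3%) were more than 500 kb from any. Those 85 had a median mean of -0.75. In the authors' deposited table their medians were -0.79 for KMS-11, -0.93 for KMS-12 and -0.51 for RPMI8226.

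Listed genes of myeloma and B cell biology were seldom the nearest gene anywhere in the table, so their low counts say little about the far intergenic regions. Over all 3838 regions, plasma cell identity genes were nearest to 5, B cell program genes to 5, myeloma driver genes to 2, BET response genes to 2, ETS genes to 4, cell cycle genes to 1, NF-kB genes to 2 and unfolded protein response genes to 6. A far intergenic region had as its nearest gene 0 of 18 plasma cell identity genes, 0 of the 21 myeloma translocation and driver genes in the gene table, 0 of the 15 BET inhibitor response genes there, 0 of 22 ETS transcription factors, 0 of 17 cell cycle genes, 0 of 15 NF-kB pathway genes and 0 of 15 unfolded protein response genes. The 1 B cell program gene of 18 was EBF1, an early B cell transcription factor. Its region, 58.5 kb away (chr5:158636993-158637414), had -0.04 for KMS-11, -0.91 for KMS-12 and -0.71 for RPMI8226 in the authors' deposited table, so KMS-11 was close to no change. By nearest protein-coding gene, a reading added after the values were seen, MYC, a driver and BET response gene, gained 1 region and SEL1L, of endoplasmic reticulum-associated degradation, 1 at 718 kb (chr14:82251564-82251756, -0.58 ± 0.47, SD, n = 3 lines).

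The MYC region lay 571 kb away and 91.0 kb from LINC00824 (chr8:128313803-128314309). It had -0.65 for KMS-11, -1.39 for KMS-12 and -0.63 for RPMI8226 in the authors' deposited table, a mean of -0.89 ± 0.44 (SD, n = 3 lines), and was common to 3 lines. The far intergenic region nearest to FLI1 was 7312 kb away (chr11:121373174-121373428, -0.72 ± 0.13), and the one nearest to SMILO, listed as LINC00582, 2571 kb away (chr1:229019854-229020143, -0.77 ± 0.52; SD, n = 3 lines each). Without KMS-11 the latter was -0.50. Both lie megabases from the gene.

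Developmental and neural adhesion genes, which often border gene deserts, were neighbours of some. Over all 3838 regions, adhesion and axon guidance genes were nearest to 49 and developmental transcription factor genes to 9. Counts by nearest protein-coding gene were not compared with a background. Of 77 adhesion and axon guidance genes, 4 were the nearest gene of 6 regions (CNTN5, CNTNAP2, EPHA3 and SEMA3C), and 20 were the nearest protein-coding gene of 28. The 6 include the chromosome 3 regions described above in the gap between EPHA3 and PROS1. These 28 had a median mean of -0.70, 6 were common to 3 lines and 4 had a mean of -1 or lower, where 24.8% and 12.3% of all regions did. The lowest means of the 28, after that of the CNTN5 region given above, were chosen for naming. They lay 309 kb from SLITRK1, a synaptic membrane protein gene (chr13:83567831-83568456, -1.16 ± 0.46), 1337 kb from NCAM2, a neural cell adhesion gene (chr21:22880696-22881200, -1.13 ± 0.69), and 674 kb from CDH11, a cadherin gene (chr16:64269639-64270090, -1.06 ± 0.70; SD, n = 3 lines each). Without KMS-12 the NCAM2 region averaged -0.75. The list's median was close to that of all regions, -0.71.

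Of 79 developmental transcription factor genes, DACH1 was the nearest gene of 1 region, and 8 were the nearest protein-coding gene of 11, with a median mean of -0.62. The lowest lay 401 kb from POU3F2, a neural POU factor gene (chr6:98433292-98433800). It had -2.04 for KMS-11, -0.48 for KMS-12 and -1.21 for RPMI8226 in the authors' deposited table, a mean of -1.24 ± 0.78 (SD, n = 3 lines). The next were 416 kb from IRX1, a homeobox gene (chr5:4017128-4017619, -0.996 ± 0.35), and 126 kb from TFAP2A, an AP-2 factor gene (chr6:10270034-10270366, -0.97 ± 0.78; SD, n = 3 lines each). Without KMS-12 the TFAP2A region averaged -0.53. The region 335 kb from DACH1 (chr13:72202580-72202910) averaged -0.55 ± 0.44 (SD, n = 3 lines).

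Counting genes of every type, 249 regions lay over 50 kb from a gene, against 365 by the rule used here. Genes of other types overlapped 7 far intergenic regions, since the rule counts only protein-coding and lncRNA genes. Both of those at tRNA genes were on chromosome 6. The region over the alanine tRNA gene TRA-AGC5-1 (chr6:28710498-28710752) had -0.88 for KMS-11, -1.74 for KMS-12 and -0.26 for RPMI8226 in the authors' deposited table, and that over TRA-TGC6-1 (chr6:28758309-28758690) had -0.70, -0.89 and -0.38. In both, RPMI8226 was nearest to 0. A region within TRB, the T cell receptor beta locus (chr7:142581223-142581692), was low in all 3 lines, with a mean of -0.78 ± 0.15 (SD, n = 3 lines). The others overlapped the pseudogenes PAFAH1B2P2 (-0.81 ± 0.31), EFL1P1 (-0.85 ± 0.36), DUX4L44 (-1.03 ± 0.79) and, as given above, LOC101930420 (-0.76 ± 0.57; SD, n = 3 lines each). Without KMS-12 the LOC101930420 region averaged -0.48. Reads in pseudogenes may be shared with their parent genes.

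Far intergenic regions had a median width of 402 bp (quartiles 291 and 541), against 392 bp in the others. At 700 bp or more were 34 (9.32%), against 12.6%. The widest, 1515 bp (chr5:163915549-163917063), lay 184 kb from LOC102724458 and had -0.12 for KMS-11, -1.07 for KMS-12 and -0.56 for RPMI8226 in the authors' deposited table. Of the next 4, those of 1412 bp near EMB and 1357 bp on chromosome 4 (chr4:49287003-49288359, -0.92 ± 0.39, SD, n = 3 lines) lay in centromeric gaps. The remaining 2, of 1243 bp (chr8:135724937-135726179) and 1085 bp (chr1:80892303-80893387), averaged -0.73 ± 0.45 and -0.71 ± 0.45 (SD, n = 3 lines each), the former -0.48 without KMS-12.

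At the 50 kb limit, the regions just inside were 50.3 kb from CTLA4, an immune checkpoint receptor gene (chr2:203817303-203817505, -1.03 ± 0.44), 50.5 kb from PTGS2, which encodes an inducible cyclooxygenase (chr1:186620971-186621292, -0.89 ± 0.69), and 50.8 kb from LOC105376583 (chr11:20253892-20254077, -0.83 ± 0.64; SD, n = 3 lines each). Just outside were regions 49.8 kb from PLA2G4A, a phospholipase gene (chr1:187038741-187039205, -0.59 ± 0.23), 48.9 kb from SPRY1, a growth factor signalling inhibitor gene (chr4:123452675-123453142, -1.11 ± 0.37), and 48.9 kb from LOC105377923 (chr6:105780514-105780869, -0.73 ± 0.47; SD, n = 3 lines each). Without KMS-11 the LOC105376583 region averaged -0.53, and without KMS-12 the LOC105377923 region -0.47. The values on both sides overlapped.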

How the data were processed

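The 6 ATAC-seq libraries formed a DMSO and a JQ1 group by their labelled treatment, with 3 lines in each. Per region, the authors deposited 1 log2 fold change for each line (base and direction assumed, since the header gives neither) and the number of lines in common, another deposited column. Per the submitters' processing notes, the tools included MACS2 and DESeq2, and GRCh38.p13 and hg38 were the builds. The sources used here do not name an aligner, read filters, peak settings or library scaling. Depth is unknown, so no counting interval or count model could be used.

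Coordinates are the authors'. Gene positions (20037 protein-coding and 18303 lncRNA genes) came from the NCBI RefSeq table for GRCh38.p14, which was used for names and distances between nearer ends. Motifs, base composition and sequence were not analysed here. Over 3 lines, the mean and SD per region were computed with pandas 2.3.3, and limma 3.58.1 (R 4.3.3) tested the mean against 0 over all 3838 regions with Benjamini-Hochberg adjustment, after a check on simulated data. Its prior degrees of freedom were infinite, giving every region a standard error of 0.262. Position classes were compared by line, with the line as replicate, and by exact sign-flip permutation. The sign-flip p-values measure only the spread between lines. With the same standard error for every region, a limma p-value depends on the mean alone and not on that region's own spread. Wilson intervals treat regions as independent.

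Regions named were those beyond 500 kb, the 12 lowest means, the 5 smallest SDs among those common to 3 lines, the 5 widest, the 3 farthest up to 500 kb, the 3 at each side of 50 kb, the lowest per line, the 3 largest chains and up to 4 per gene list, lowest mean first. Regions with a listed gene as nearest protein-coding gene, and those overlapping genes of other types, were added to this rule. Members and lists were chosen with earlier results of these data known. Values on chromosome Y are not reported here. Some regions that meet the naming rule are also not reported here.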

Additional observations from a re-analysis of the deposited data

Results flagged for a closer look

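Far intergenic minus other regions, as a difference of median log2 fold changes, ran opposite ways in the lines. It was -0.0559 in KMS-11 and -0.11 in KMS-12, but 0.0534 in RPMI8226. With 1 value per line the difference between lines was not tested. RPMI8226 had the fewest recurring fold values in far intergenic regions, 12.1% against 41.9% in KMS-11 and 59.7% in KMS-12. The order was the same over all regions, at 7.58% in RPMI8226, 41.3% in KMS-11 and 52.3% in KMS-12. The part of recurring values in the difference was not tested further.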

How the results depend on the processing

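Under the alternatives run, the median of -0.71 lay between -0.81 and -0.63. Far intergenic minus other regions lay between -0.08 and -0.00126, the last without KMS-12 and close to 0. Counts followed the rule: 633 regions lay beyond 25 kb (554 called by limma), 185 beyond 100 kb (160) and 72 beyond 200 kb (63), and 982 lay over 50 kb from a protein-coding gene (849). Limma called 87.5% of all regions, so these counts are not read as a result about distance. Counting genes of every type, 249 lay over 50 kb from a gene. Beyond 200 kb, 25% had a mean of -1 or lower and 80.6% a tied value in KMS-11 or KMS-12, against 12.3% and 66.1% of all regions. Limma called 161 regions at an adjusted p of 0.01 (42.1% of all regions passed), 75 of 100 untied regions (70.0% of all untied) and, with a trend and robust prior, 365 (99.8% of all). Without 1 line it called 122 (KMS-11), 175 (KMS-12) and 234 (RPMI8226), where 34.1%, 52.0% and 55.0% of all regions passed, and the share at -1 or lower was 13.4% to 28.2%, where the highest, without RPMI8226, stood beside 21.6% of all regions. A check of 61 named far intergenic regions covered those added to the naming rule, but not the regions just outside 50 kb. Of the 61, leaving out KMS-12 moved 15 means by over 1.5 times, KMS-11 2 and RPMI8226 0. Each deposited fold already pairs JQ1 with DMSO within a line, so the tests use this pairing and no separate paired analysis was run. The planned motif and base composition shares were not run. Alternatives without the longest gene-free gaps were chosen after seeing the data. Depth is unknown and limits all values.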
